A study of Homo sapiens with 9 samples.

Results

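The genes described here are 9 markers of neuroendocrine differentiation and of stem-like lineage state: CHGA, CHGB, SYP, ENO2, NCAM1, INSM1, FOXA2, POU3F2 and SOX2. They were chosen by name, and all 9 were found among the 60675 genes of the count files. Expression was measured by RNA-seq in LNCaP:C42, a castration-resistant prostate cancer cell line derived from LNCaP, in 3 groups of 3 libraries. All 9 libraries came from cells transduced with a lentiviral shRNA construct, selected with puromycin and grown in charcoal-stripped serum. The cells received 1 µg/ml doxycycline for 6 days to induce the shRNA. The groups were shScramble, a hairpin that targets no gene, and 2 hairpins against the m6A methyltransferase METTL3, called shMETTL3 guide 2 and shMETTL3 guide 1. The sample titles name a vehicle in every group. Each hairpin was carried by its own selected cells, so the hairpin and the selected cells that carry it cannot be told apart.

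Neuroendocrine cells of the prostate store peptide hormones in dense-core granules, and their markers fall into granule and vesicle proteins, an enolase and an adhesion molecule of neurons, and the transcription factors that establish the lineage. Neuroendocrine prostate cancer can emerge from adenocarcinoma under therapy that blocks androgen signalling, with loss of luminal features and gain of these markers. POU3F2 (also called BRN2) and SOX2 are studied in this setting as drivers of lineage plasticity, and SOX2 is one of the core factors of pluripotent cells.

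METTL3 RNA, the target of both hairpins, was 29.8, 31.7 and 33.0 CPM, the read count normalized to library size by TMM, in the shScramble libraries, 16.6, 16.6 and 15.8 CPM with guide 2, and 29.4, 30.1 and 29.6 CPM with guide 1. It fell by 0.95 on the log2 scale with guide 2 (adjusted p = 2.97e-12, edgeR quasi-likelihood test) and differed by -0.08 with guide 1 (adjusted p = 0.251), where the libraries overlapped the controls. Exons of the antisense neighbour TOX4 cover 6.58% of those of METTL3. Because its target was not lowered, the last group is called the libraries labelled guide 1. Total counts ran from 21899501 to 30897639 a library. The neuroendocrine lineage factor NEUROD1 had 2 counts in 2 of the libraries labelled guide 1 and 0 elsewhere. The 11 luminal markers together reached 3209 to 3265 CPM in shScramble, 3843 to 3973 CPM with guide 2 and 1668 to 1725 CPM in the libraries labelled guide 1. FOLH1 gave the largest part of this sum, at means of 1210, 1301 and 544 CPM. The markers did not all move with the sum. KRT8, KRT18, KLK2 and KLK3 had lower means with guide 2 than in shScramble, and KLK3 had a higher mean in the libraries labelled guide 1. KRT5 and TP63 of basal cells, DCN of fibroblasts, CD3E of T cells and PECAM1 of endothelium had 0 counts in all 9 libraries. COL1A1, a collagen of fibroblasts, was detected at means of 43.5 CPM in shScramble, 35.3 with guide 2 and 21.1 in the libraries labelled guide 1, and gave nearly all of the sum of the 4 fibroblast markers (41.6 to 45.5, 33.3 to 36.7 and 18.8 to 24.6 CPM). The endothelial gene VWF stood at 1.48, 2.99 and 0.984 CPM, and CD68 of macrophages had 2 to 15 counts. The part of these genes in the results below was not tested. Where luminal genes are lower and lineage markers higher, more cells of a type and more RNA per cell cannot be told apart in these bulk libraries. Whether the 3 libraries of a group were separate cultures is not given, so the p-values measure the spread between these libraries, which may be technical.

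The lineage markers moved in different directions with the 2 hairpins. In the libraries labelled guide 1, CHGB, SYP, ENO2, NCAM1, INSM1, POU3F2 and SOX2 were higher than in shScramble, by 1.21 to 4.29 on the log2 scale. With guide 2, CHGA, CHGB, NCAM1, INSM1, POU3F2 and SOX2 were lower than in shScramble, with changes of -1.03 to -2.90, and ENO2 was higher. A gene was called changed at a Benjamini-Hochberg adjusted p under 0.05 over all 19278 genes tested together with a fold change of at least 1.5. FOXA2 had too few counts to be tested, which left 8 of the 9 markers. Of these, 6 were called lower with guide 2, where 20.4% of all tested genes were, and 1 was called higher, against 8.85% of all tested genes. In the libraries labelled guide 1, 7 of the 8 were called higher, against 21.2% of all tested genes, and 0 lower, against 16.5%, since all 8 differences lay above 0. CHGB, INSM1 and SOX2 passed the filter on low counts only through that group, where they are high, so nothing is read from the counts and medians over the 8. Of the other 5 tested markers, 4 were called higher in the libraries labelled guide 1, and 3 were called lower and 1 higher with guide 2. The median log2 fold change of the 8 markers was -1.83 with guide 2, beside -0.04 over all tested genes, and 2.77 in the libraries labelled guide 1, beside -0.02. Both comparisons use the same shScramble libraries.

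Guide 2 and guide 1 were also compared directly, which tests whether these 2 sets of libraries differed. It does not separate a hairpin from the selected cells that carry it. All 8 tested markers were called lower with guide 2 than in the libraries labelled guide 1, against 28.2% of all tested genes, and 0 were called higher, against 19.1%, since all 8 differences lay below 0. Their median difference was -4.50 on the log2 scale, beside -0.06 over all tested genes. With 3 libraries a group, the exact two-sided permutation test of a single gene cannot go below p = 0.1, and it reached that value in each of these 8 direct comparisons, since the groups did not overlap. CHGB, INSM1 and SOX2 entered the test only because of their level in the libraries labelled guide 1. Nothing is therefore read from the count and the median over the 8 in this comparison. CHGA, SYP, ENO2, NCAM1 and POU3F2, which passed the filter without that group, were each called lower with guide 2 here. A gene had to reach 0.374 CPM in 3 libraries, which these 3 genes did in at most 2 shScramble libraries and in 0 guide 2 libraries. When guide 2 and shScramble were fitted without the libraries labelled guide 1, these 3 genes were not tested and 4 markers were called, namely CHGA, ENO2, NCAM1 and POU3F2.

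**Figure D1:**
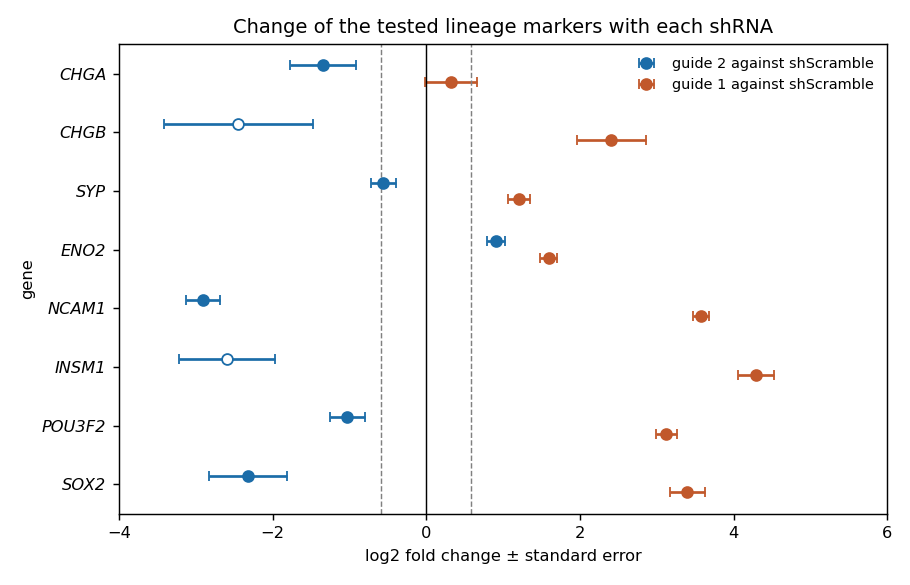
Log2 fold change (x axis) of the 8 tested markers (y axis) against shScramble, with its standard error, for guide 2 (blue) and for the libraries labelled guide 1 (orange). Open circles mark genes with at most 3 counts in every guide 2 library, and dashed lines mark the fold change of 1.5; guide 2 values lie below 0 for every gene but ENO2, and guide 1 values above 0 for all 8.

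The chromogranins CHGA and CHGB are acidic proteins of the dense-core granule matrix, and CHGA is the granule protein measured in serum as a neuroendocrine marker. CHGA, on chromosome 14 from 92923080 to 92935293 of GRCh38, had 17, 20 and 16 counts in shScramble, 7, 7 and 3 with guide 2 and 24, 23 and 20 in the libraries labelled guide 1. These counts correspond to 0.626 ± 0.076, 0.239 ± 0.090 and 0.780 ± 0.096 CPM (mean ± SD, n = 3). All guide 2 libraries lay below all others, whereas shScramble and the libraries labelled guide 1 overlapped. CHGA fell by 1.35 on the log2 scale with guide 2 (SE 0.43, adjusted p = 0.0081). The difference in the libraries labelled guide 1 was 0.32 (SE 0.34, adjusted p = 0.400) and was not called. CHGA was thus the 1 tested marker without a call in that comparison. Between guide 2 and guide 1 the difference was -1.67 (SE 0.42, adjusted p = 6.9e-04). A test against the fold of 1.5 itself gave an adjusted p of 0.0755 for CHGA with guide 2.

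The RefSeq promoter table of GRCh38.p14 held CHGA, SYP, ENO2, POU3F2 and SOX2, 5 of the 9 markers, and held no entry for CHGB, NCAM1, INSM1 and FOXA2. The 250 bases before and 50 bases after each start were searched on both strands for 6 short motifs. These were TGACGT, the core of the cyclic AMP response element, the E-boxes CACCTG and CAGCTG, and the GC box GGGCGG. The others, TTCAGCACC and GGACAGC, are parts of the element bound by the neuronal gene repressor REST. Shares over all promoters are for the same window, and every match in the markers lay before the start. CHGA was the single one of the 5 windows with TGACGT, which 7.98% of 35116 RefSeq promoters hold, and the bases around it are shown for that reason. They run from -66 to -37 relative to the RefSeq start, at chr14:92923084-92923113 on the plus strand, within the gene as the authors' annotation gives it. The capitals mark the GC box and, in the second run, TGACGT overlapping its own reverse complement.
CHGA: GGGCGGcaccgcTGACGTCAtttccggggt

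The CHGA window also held CACCTG at -93, a motif of 20.6% of all promoters. The windows of SYP, ENO2, POU3F2 and SOX2 held the GC box alone among the 6 motifs, 4 times in SYP, 2 times each in ENO2 and POU3F2 and 1 time in SOX2. The GC box is found in 45.0% of all promoters. The 250 bases before the 5 starts were 68.8 to 74.0% G and C, beside a median of 58.0% over all promoters. These matches describe letters in the windows, and no binding was measured.

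CHGB, on chromosome 20 from 5911430 to 5925361, was near the limit of detection outside the libraries labelled guide 1. It had 4, 6 and 5 counts in shScramble, 0, 2 and 0 with guide 2, and 27, 28 and 27 in the libraries labelled guide 1. The 3 groups did not overlap. It reached 0.953 ± 0.053 CPM in the libraries labelled guide 1, higher than shScramble by 2.41 on the log2 scale (SE 0.45, adjusted p = 2.38e-05). With guide 2, 2 counts in all stood against 15, a level 6.15-fold lower than shScramble with an exact 95% counting interval of 1.43 to 55.4. The fitted change of -2.45 (SE 0.97) had an adjusted p of 0.0209 and rested on single libraries. The call was lost without shScramble replicate 3 (adjusted p = 0.0502), without guide 2 replicate 1 (0.0846) and without guide 2 replicate 3 (0.0792), and also with DESeq2 (0.0561) and with the test against the fold of 1.5 (0.0878). Without guide 2 replicate 2, the other 2 guide 2 libraries had 0 counts and the fitted change was -5.29. Against the libraries labelled guide 1, CHGB was 33.4-fold lower with guide 2 (counting interval 8.96 to 280), and each of the 14 alternative fits in which it was tested called it.

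SYP encodes synaptophysin, a membrane protein of synaptic-like vesicles that pathologists stain together with chromogranin. Its gene occupies bases 49187804 to 49200259 of chromosome X, on the minus strand. The shScramble libraries held 4.79, 5.24 and 4.47 CPM, the guide 2 libraries 3.94, 2.55 and 3.44 CPM, and the libraries labelled guide 1 13.6, 10.3 and 9.83 CPM. All groups were separate, with guide 2 lowest. SYP was higher in the libraries labelled guide 1 by 1.21 on the log2 scale (SE 0.14, adjusted p = 1.48e-08), a fold of 2.31. With guide 2 its difference of -0.56 (SE 0.17, adjusted p = 0.0054) was a fold of 1.47 and missed the threshold on size. SYP would have been called without shScramble replicate 3 (-0.61), without guide 2 replicate 1 (-0.70), with scaling by library size alone (-0.71) and with a minimum mean of 1 CPM (-0.61). Without guide 2 replicate 2, the lowest of its group, the difference was -0.39 and its adjusted p was 0.0571. The direct difference between guide 2 and the libraries labelled guide 1 was -1.76 (SE 0.15, adjusted p = 3.75e-11). The antisense gene SYP-AS1 shares 68 exon bases with SYP, or 1.30% of its exons, and had at most 1 count in a library.

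ENO2, neuron-specific enolase, is a glycolytic enzyme of neurons and neuroendocrine cells, encoded on chromosome 12 from 6913745 to 6923698. It was the tested marker that rose with both hairpins. The shScramble libraries held 7.18, 6.06 and 6.57 CPM, the guide 2 libraries 12.8, 11.7 and 12.8 CPM, and the libraries labelled guide 1 17.3, 23.5 and 19.0 CPM. The groups did not overlap, with shScramble lowest and the libraries labelled guide 1 highest. ENO2 rose by 0.91 on the log2 scale with guide 2 (SE 0.11, adjusted p = 1.18e-07) and was higher by 1.59 in the libraries labelled guide 1 (SE 0.11, adjusted p = 2.69e-13). The difference of -0.68 between guide 2 and guide 1 (SE 0.10, adjusted p = 8.6e-07) was a fold of 1.61. Without guide 1 replicate 2, the highest of its group, that difference was -0.54 and was no longer called. The related enolase genes were measured too, and neither was called with either hairpin. ENO1, expressed in most tissues, had log2 changes of 0.27 with guide 2 and 0.25 with guide 1, and ENO3, the muscle form, had -0.02 and -0.31.

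NCAM1 encodes the neural cell adhesion molecule, the CD56 antigen of neuroendocrine tumours, on chromosome 11 from 112961247 to 113278436. Of the markers with more than 3 counts in every library, it differed most between guide 2 and the libraries labelled guide 1. The shScramble libraries held 3.62, 5.21 and 5.08 CPM. The guide 2 libraries held 0.607, 0.359 and 0.907 CPM, from 14, 9 and 20 counts. The libraries labelled guide 1 held 53.0, 57.0 and 55.0 CPM, from 1509 to 1643 counts. The 3 groups were far apart, and the coefficient of variation of NCAM1 in the libraries labelled guide 1 was 3.61%. NCAM1 fell by 2.90 on the log2 scale with guide 2 (SE 0.22, adjusted p = 2.33e-11), a fold of 7.48, and was higher by 3.57 in the libraries labelled guide 1 (SE 0.10, adjusted p = 3.1e-20), a fold of 11.9. The direct difference was -6.48 (SE 0.15, adjusted p = 1.75e-22), a fold of 89.0. The antisense genes NCAM1-AS1 and ENSG00000247416 share 552 and 151 exon bases with it, 4.33% and 1.19% of its exons. NCAM1-AS1 had at most 5 counts in a library. ENSG00000247416 had 1, 0 and 0 counts in shScramble, 0, 1 and 0 with guide 2 and 19, 7 and 25 in the libraries labelled guide 1. The strand setting is not given, so these counts do not show how many reads of these genes were assigned to NCAM1. Its paralogue NCAM2 went the other way, at 62.5 CPM in shScramble, 122 CPM with guide 2 and 31.3 CPM in the libraries labelled guide 1, and both changes were called (adjusted p = 2.64e-15 and 1.1e-15).

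INSM1 is a zinc-finger factor that drives endocrine and neuronal differentiation and represses NOTCH signalling targets, encoded by a gene without introns on chromosome 20 from 20368121 to 20370949. Of the 8 tested markers, it differed most from shScramble in the libraries labelled guide 1. The counts were 14, 18 and 7 in shScramble, 3, 2 and 0 with guide 2, and 307, 210 and 258 in the libraries labelled guide 1. On the CPM scale the groups had means of 0.442 ± 0.130, 0.070 ± 0.066 and 8.99 ± 1.64 (SD, n = 3), and no library of one group reached another. INSM1 was higher in the libraries labelled guide 1 by 4.29 on the log2 scale (SE 0.23, adjusted p = 1.56e-15), a fold of 19.6. With guide 2, 5 counts in all stood against 39, a level 6.40-fold lower than shScramble with a counting interval of 2.52 to 20.8. The fitted change was -2.60 (SE 0.62, adjusted p = 5.54e-04), and it was -3.29 without guide 2 replicate 1, which holds 3 of those 5 counts. Against the libraries labelled guide 1 it was 126-fold lower with guide 2 (counting interval 53.9 to 390).

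FOXA2, a forkhead pioneer factor of endoderm found in neuroendocrine prostate tumours, is encoded by bases 22581005 to 22585455 of chromosome 20 on the minus strand. It had 3, 3 and 0 counts in shScramble, 0 in each guide 2 library, and 1, 13 and 5 in the libraries labelled guide 1. The shScramble libraries were at the floor of 3 counts, so no fold is given between guide 2 and shScramble, and the libraries labelled guide 1 overlapped the controls. The 19 counts of the libraries labelled guide 1 stood 3.15-fold above the 6 of shScramble, with a counting interval of 1.21 to 9.62, and 13 of them came from replicate 2. With no filter on low counts, the adjusted p was 0.0847 for guide 2 against shScramble, 0.174 for guide 1 against shScramble and 0.0012 for guide 2 against guide 1. Counting intervals and floors cover counting error only, since reads were not tagged by molecule.

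POU3F2 is a class III POU-domain factor of the developing brain, encoded by a gene without introns on chromosome 6 from 98834592 to 98839490. The shScramble libraries held 2.43, 2.04 and 1.84 CPM, the guide 2 libraries 0.954, 1.20 and 0.952 CPM, and the libraries labelled guide 1 15.7, 21.4 and 18.5 CPM. The groups were separate, with guide 2 lowest. POU3F2 fell by 1.03 on the log2 scale with guide 2 (SE 0.22, adjusted p = 2.57e-04), a fold of 2.04, and was higher by 3.12 in the libraries labelled guide 1 (SE 0.14, adjusted p = 2.25e-17), a fold of 8.71. The direct difference was -4.15 (SE 0.16, adjusted p = 9.18e-19).

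SOX2 is an HMG-box factor of pluripotent and neural progenitor cells, encoded by a gene without introns on chromosome 3 from 181711924 to 181714436. It had 10, 21 and 19 counts in shScramble, 1, 4 and 3 with guide 2, and 171, 173 and 193 in the libraries labelled guide 1. The means were 0.605 ± 0.259, 0.113 ± 0.061 and 6.23 ± 0.23 CPM (SD, n = 3), and the groups did not overlap. SOX2 fell by 2.32 on the log2 scale with guide 2 (SE 0.51, adjusted p = 2.21e-04) and was higher by 3.40 in the libraries labelled guide 1 (SE 0.23, adjusted p = 2.1e-13), a fold of 10.5. The direct difference was -5.72 (SE 0.33, adjusted p = 2.81e-15). SOX2 lies within the span of the long noncoding RNA SOX2-OT, on the same strand, and shares 0 exon bases with it. SOX2-OT had 7, 8 and 6 counts in shScramble, 3, 9 and 5 with guide 2 and 22, 18 and 22 in the libraries labelled guide 1. It was higher in the latter by 1.53 (SE 0.42, adjusted p = 0.0019) and was not called with guide 2, where its change was -0.02 (adjusted p = 0.972).

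POU3F2 and SOX2 are the 2 lineage factors of the set with a RefSeq promoter entry, and both rose in the libraries labelled guide 1 and fell with guide 2, so the 250 bases before their starts are shown. Capitals mark the GC box GGGCGG or its reverse complement. Both are on the plus strand of GRCh38.p14, POU3F2 at chr6:98834324-98834573 and SOX2 at chr3:181711675-181711924.
POU3F2: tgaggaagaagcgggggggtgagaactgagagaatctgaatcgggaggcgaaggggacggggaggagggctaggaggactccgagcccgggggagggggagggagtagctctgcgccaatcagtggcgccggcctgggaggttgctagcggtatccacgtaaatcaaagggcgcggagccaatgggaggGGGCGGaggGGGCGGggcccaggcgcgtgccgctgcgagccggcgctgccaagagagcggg
SOX2: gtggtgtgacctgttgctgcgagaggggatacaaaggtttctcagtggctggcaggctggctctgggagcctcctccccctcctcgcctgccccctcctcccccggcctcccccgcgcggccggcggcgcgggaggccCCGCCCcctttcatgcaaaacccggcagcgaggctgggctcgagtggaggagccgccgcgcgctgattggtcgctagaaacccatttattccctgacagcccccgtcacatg

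Levels of different markers were compared per length, as CPM per kilobase of annotated exon (RPKM). In shScramble ENO2 was highest at 1.54 RPKM, followed by SYP at 0.927, POU3F2 at 0.429, NCAM1 at 0.364, SOX2 at 0.241, CHGA at 0.202, INSM1 at 0.156, CHGB at 0.039 and FOXA2 at 0.024. The libraries of neighbours in this order overlapped except between ENO2 and SYP, SYP and POU3F2, and INSM1 and CHGB. ENO2 lay at percentile 37.1 of all tested genes in shScramble. In the libraries labelled guide 1, ENO2 at 4.66, NCAM1 at 4.31, POU3F2 at 3.78 and INSM1 at 3.18 RPKM came first, and each overlapped the next. SOX2 at 2.48, SYP at 2.15, CHGA at 0.251, CHGB at 0.210 and FOXA2 at 0.086 RPKM followed, with gaps between INSM1 and SOX2, SYP and CHGA, and CHGB and FOXA2. Among all tested genes, NCAM1 stood at percentile 16.8 in shScramble and 54.7 there, and INSM1 at 8.49 and 48.4. With guide 2, ENO2 at 2.90 and SYP at 0.635 RPKM were the 2 highest. POU3F2 followed at 0.211, CHGA at 0.077, NCAM1 at 0.049, SOX2 at 0.045, INSM1 at 0.025, CHGB at 0.0059 and FOXA2 at 0. From CHGA down to CHGB each marker overlapped the next there.

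Wider lists of genes with the same roles were read from the same test, with the 9 markers themselves left out. As with the markers, a gene expressed in 1 group alone could enter the test only through that group. Nothing is therefore read from the counts and medians of the lists. Beside each list's counts stand the shares of all tested genes, which were 8.85% higher and 20.4% lower with guide 2, and 21.2% higher and 16.5% lower in the libraries labelled guide 1. Of 10 granin and prohormone-processing genes, 6 were tested, of which 2 were called with guide 2, both lower, and 2 higher and 1 lower in the libraries labelled guide 1. The medians were -0.09 and 0.10, beside -0.04 and -0.02 over all tested genes. PCSK1N, a granin-like precursor that inhibits a prohormone convertase, stood at 3.98 CPM in shScramble, 3.16 with guide 2 and 25.0 in the libraries labelled guide 1. It was higher in the last by 2.66 on the log2 scale (SE 0.12, adjusted p = 1.85e-17). VGF, a neuropeptide precursor, went the other way, with 15.9, 23.7 and 9.99 CPM, and changed by -0.67 in the libraries labelled guide 1 (SE 0.09, adjusted p = 7.58e-08). The counts of calls in this short list moved with single libraries. With guide 2, 4 genes were called without shScramble replicate 2 or guide 2 replicate 3, and 1 without shScramble replicate 3 or guide 2 replicate 2. For the libraries labelled guide 1, 5 were called without shScramble replicate 2 or guide 1 replicate 2.

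All 26 genes of synaptic and dense-core vesicle machinery were tested. With guide 2, 3 were called higher and 10 lower (8.85% and 20.4% of all tested genes), with a median of -0.31. SNAP25 and RAB3C, among others, passed the filter on low counts only through the libraries labelled guide 1. When guide 2 and shScramble were fitted alone, 9 genes of this list were called, and 7 were called with a minimum mean of 1 CPM. In the libraries labelled guide 1, 10 were called higher and 5 lower (21.2% and 16.5% of all tested genes), with a median of 0.22. The synaptic vesicle protein SV2A had 1.18 CPM in shScramble, 0.473 with guide 2 and 9.18 in the libraries labelled guide 1, with changes of -1.32 (adjusted p = 3.2e-04) and 2.95 (adjusted p = 1.03e-14). SNAP25, of the complex that fuses vesicles with the membrane, had 5, 8 and 2 counts in shScramble, 1, 0 and 2 with guide 2 and 36, 45 and 36 in the libraries labelled guide 1, where it was higher by 2.93 (adjusted p = 4.57e-07). RAB3C, a small GTPase of secretory vesicles, was higher there by 3.01 (adjusted p = 2.11e-07). SNAP91, a clathrin adaptor of synapses, changed by -1.70 (adjusted p = 3.52e-05) with guide 2. SYT4, a synaptotagmin, had the opposite pattern to most markers. It had 10, 13 and 7 counts in shScramble, 27, 31 and 20 with guide 2, and 4, 3 and 1 in the libraries labelled guide 1, and it rose with guide 2 by 1.65 (SE 0.37, adjusted p = 3.89e-04).

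Of 30 other lineage transcription factors and regulators, 21 were tested. With guide 2, 3 were called higher and 4 lower (8.85% and 20.4% of all tested genes), with a median of -0.13, and in the libraries labelled guide 1, 11 were called higher and 2 lower (21.2% and 16.5%), with a median of 0.78. POU3F3, a close paralogue of POU3F2, had 1.28 CPM in shScramble, 0.184 with guide 2 and 11.3 in the libraries labelled guide 1. It fell by 2.75 with guide 2 (SE 0.35, adjusted p = 9.08e-08) and was higher by 3.15 in the libraries labelled guide 1 (SE 0.16, adjusted p = 3.09e-16). TCF4, an E protein that partners neural basic helix-loop-helix factors, followed the same order at 2.85, 1.51 and 18.2 CPM, with changes of -0.90 and 2.69. EYA2, a transcriptional coactivator and phosphatase, was higher in the libraries labelled guide 1 by 4.06 (SE 0.18, adjusted p = 1.77e-17), and PROX1, a homeodomain factor, by 2.78 (SE 0.22, adjusted p = 4.5e-12). With guide 2, EYA2 was also called higher, by 0.81. PROX1 had 3, 0 and 0 counts there, 3 in all against 77 in shScramble, a level 21.05-fold lower (counting interval 6.94 to 104). ISL1, a LIM-homeodomain factor, rose with guide 2 by 0.92 (SE 0.26, adjusted p = 0.0032). Its difference in the libraries labelled guide 1 was in the same direction, at 1.95. DLL3, an inhibitory NOTCH ligand of neuroendocrine tumours, was 10.4 CPM in shScramble and 17.7 with guide 2, higher by 0.76 (adjusted p = 8.23e-08). It stood at 9.02 CPM in the libraries labelled guide 1 and was not called there (adjusted p = 0.0686).

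REST, the repressor that keeps neuronal genes silent in other tissues, did not pass the test with either hairpin. Its counts were 2051, 2215 and 1545 in shScramble, 1462, 1640 and 1429 with guide 2, and 1854, 1964 and 1979 in the libraries labelled guide 1, or means of 67.9, 64.5 and 67.3 CPM. The log2 changes were -0.07 (SE 0.05, adjusted p = 0.205) and -0.01 (SE 0.05, adjusted p = 0.842). SRRM4, the neural splicing factor that can inactivate REST, had at most 5 counts in a library. Of 16 genes of the REST axis, 15 were tested, with 1 called higher and 2 lower with guide 2 and 3 called in the libraries labelled guide 1, all higher, and medians of 0.14 and 0.08. Over all tested genes 8.85% were called higher and 20.4% lower with guide 2, and 21.2% higher in the libraries labelled guide 1. EHMT2, a histone H3 lysine methyltransferase, rose with guide 2 by 0.72 (adjusted p = 9.62e-13). PTBP2, a splicing repressor of neurons, and RCOR2, a corepressor, changed by -0.70 (adjusted p = 4.24e-06) and -0.64 (adjusted p = 3.82e-04) with guide 2. RCOR2 was higher in the libraries labelled guide 1 by 0.75, as were the deacetylase HDAC2 by 0.76 and the splicing repressor PTBP1 by 0.66. The phosphatase CTDSPL was higher with guide 2 than in the libraries labelled guide 1 by 0.70 (adjusted p = 2.66e-11).

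A further list of 36 genes held reported markers of neuroendocrine prostate cancer and the paralogues ENO1, ENO3 and NCAM2. SNAP25 and SYT4 of the synaptic list are counted here again. Of the 36, 25 were tested. With guide 2, 3 were called higher and 4 lower (8.85% and 20.4% of all tested genes), with a median of -0.05, and in the libraries labelled guide 1, 7 were called higher and 6 lower (21.2% and 16.5%), with a median of -0.24. NCAM2 was among those called higher with guide 2 and lower in the libraries labelled guide 1. With a minimum mean of 1 CPM, 4 genes of this list were called with guide 2. UCHL1, a neuronal deubiquitinase, had 201, 206 and 177 counts in shScramble, 26, 18 and 27 with guide 2, and 3054, 2600 and 2915 in the libraries labelled guide 1. It fell by 2.75 with guide 2 (SE 0.16, adjusted p = 3.68e-14) and was higher by 3.86 in the libraries labelled guide 1 (SE 0.08, adjusted p = 1.42e-24). PEG10, a retrotransposon-derived gene, had 1, 3 and 4 counts in shScramble and 4, 1 and 15 with guide 2. It had 44, 30 and 42 in the libraries labelled guide 1, higher than shScramble by 3.77 (SE 0.58, adjusted p = 2.52e-06). CALCA, the calcitonin gene, fell by 2.38 with guide 2 (SE 0.29, adjusted p = 6.55e-08) and was also called lower in the libraries labelled guide 1, with a change of -0.93 (adjusted p = 9.26e-04).

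Of 29 stemness and pluripotency genes other than SOX2, 23 were tested. With guide 2, 3 were called higher and 6 lower (8.85% and 20.4% of all tested genes), with a median of -0.10, and in the libraries labelled guide 1, 10 were called higher and 1 lower (21.2% and 16.5%), with a median of 0.13. UTF1, LGR5 and SOX2-OT, among others, passed the filter on low counts only through the libraries labelled guide 1. With a minimum mean of 1 CPM, 7 genes of this list were called in those libraries. The core pluripotency genes did not follow SOX2. NANOG had 1 count in 2 of the 9 libraries and 0 in the others, and POU5F1 had 62 to 106 counts, with log2 changes of -0.08 (adjusted p = 0.691) and -0.36 (adjusted p = 0.0564). MSI1, an RNA-binding protein of neural progenitors, fell by 3.05 with guide 2 (SE 0.28, adjusted p = 2.95e-10) and was higher by 2.85 in the libraries labelled guide 1. LIN28B, which blocks the maturation of let-7 microRNAs, fell by 2.40 (SE 0.20, adjusted p = 3.01e-11) and was higher by 2.97. The reprogramming factor KLF4 fell by 1.96 with guide 2 (SE 0.11, adjusted p = 6.2e-15). UTF1, a chromatin factor of embryonic stem cells, had 1, 2 and 0 counts in shScramble, 0 with guide 2, and 59, 69 and 70 in the libraries labelled guide 1. That was 65.6-fold above shScramble (counting interval 22.1 to 321) and at least 16.9-fold above guide 2. LGR5, an R-spondin receptor of epithelial stem cells, and KIT, the receptor of stem cell factor, were higher in the libraries labelled guide 1 by 3.88 (SE 0.32, adjusted p = 1.18e-11) and 3.74 (SE 0.20, adjusted p = 2.22e-15).

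The luminal markers had values to set beside these. HOXB13, a homeodomain factor of prostate luminal cells, was 239 CPM in shScramble, 411 with guide 2 and 143 in the libraries labelled guide 1, with log2 changes of 0.78 (adjusted p = 1.06e-13) and -0.74 (adjusted p = 1.53e-13). The surface antigen FOLH1 was 1210 CPM in shScramble and 544 in the libraries labelled guide 1, a log2 change of -1.15 (adjusted p = 2.5e-18), and the luminal keratin KRT8 changed there by -0.92 (adjusted p = 4.12e-16). FOLH1 changed by 0.10 and KRT8 by -0.14 with guide 2, and neither was called. The part of luminal identity in the change of the lineage markers was not tested.

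For each tested marker the genes with the most similar profile, 1 or 2 a marker, were taken from 15423 genes whose mean reached 1 CPM, by Pearson r of log2 CPM over the 9 libraries. The libraries share their 3 groups, so r mostly reflects the order and spacing of 3 group means, and it is given as a description. NCAM1 was most like AKAP12 (r = 0.999), a kinase scaffold with 5.82, 0.855 and 60.1 CPM in shScramble, guide 2 and guide 1, and NEFM (r = 0.999), a neurofilament subunit with 1.23, 0.0598 and 43.7 CPM. CHGB was most like ITPRIPL1 and NOS2, and SOX2 most like ZNF827 and RNF217 (r of 0.996 to 0.997 in these 4 pairs). INSM1 was closest to ENSG00000253123 (r = 0.999) and ZSCAN18 (r = 0.997), and POU3F2 to ZMYM4 and ZDBF2 (r = 0.999 for both). SYP was closest to TMEM17 (r = 0.990) and C15orf40 (r = 0.989), and CHGA to PARGP1 (r = 0.987) and GABBR1 (r = 0.984). ENO2, with its different order of groups, was closest to GTF3C5 (r = 0.993). None of the 8 markers had another marker among its 2 closest genes, but CHGA and CHGB lay under 1 CPM and could not be drawn. Between pairs of markers, r ran from 0.077 for CHGA and ENO2 to 0.985 for CHGB and SOX2.

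Whether the genes around each marker moved with it was described from the 5 tested genes on each side along the chromosome, a window chosen after the values of the markers were seen. Over all tested genes, 21.2% were called higher and 16.5% lower in the libraries labelled guide 1. Of the 10 genes around it, SOX2-OT was called higher and 3 lower in the libraries labelled guide 1, with a median log2 change of -0.32. Around INSM1 the median was -0.05, and KIZ-AS1 (2.21) was the 1 neighbour called higher. Around ENO2 all 10 neighbours had values below 0, from -1.07 to -0.14, and 6 were called lower, while ENO2 itself was higher by 1.59. LRRC23, on the same strand as ENO2 and overlapping its span with 0 shared exon bases, changed by -0.23.

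Around NCAM1 the median was -0.39 in the libraries labelled guide 1, and the 1 gene called higher was the dopamine receptor DRD2, by 3.59. CHGA, which was itself not called, lay beside SLC24A4, higher by 4.49, and RIN3, higher by 2.93. Around POU3F2, 4 of 10 neighbours were called, all higher, with a median of 0.50, and FAXC was the highest at 2.36. Around CHGB, 4 of 10 were called higher, with a median of 0.32. SYP had 3 of 10 neighbours called, all lower, with a median of -0.24. With 10 genes a window, these counts stand beside 21.2% higher and 16.5% lower over all tested genes, and nothing is read from them.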

How the data were processed

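Total RNA of LNCaP:C42 cells was sequenced in 9 libraries, 3 each of shScramble, shMETTL3 guide 2 and shMETTL3 guide 1, grouped by the sample labels. The authors trimmed reads with Trim Galore and cutadapt, checked them with FastQC, aligned them to GRCh38 with STAR and assigned them to Ensembl genes with featureCounts, and deposited each library as unnormalized counts per gene. Tool versions and the strand setting are not given in the sources used here, so reads of overlapping and antisense genes could be counted for either. Symbols were given to 56558 of 60675 genes (93.2%) from a later annotation of the same build, and 0 rows named no gene.

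Counts were tested in edgeR 4.0.16 (R 4.3.3) with TMM factors, filterByExpr (minimum count 10, minimum total 15) and the robust quasi-likelihood F test, with all 9 libraries in one model without covariates. Benjamini-Hochberg adjustment was over all 19278 genes tested, and a gene was called at an adjusted p under 0.05 and a fold of at least 1.5. Fold changes are the first group over the second, and errors of log2 fold changes are standard errors. The smallest p of an exact permutation test with 3 libraries against 3 is 0.1. Counting intervals are exact at 95%, and the floor is 3 counts a library, or 0.0971 to 0.137 CPM before TMM scaling. RPKM is TMM-normalized CPM per kilobase of annotated exon. The test recovered 199 of 200 changed genes in counts simulated after guide 2 against shScramble (18393 genes), with 2 unchanged genes called. The changed genes were drawn from better-counted genes only, with 1 fixed spread for all genes. The simulation therefore gives no recovery rate for markers at low counts, such as CHGA, CHGB, INSM1 and SOX2.

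The markers and lists were chosen with earlier results of these data known. Besides the 9 markers and METTL3, genes were named from each list as the 3 called genes with the largest change in each comparison at 1 CPM or more in either group, with NEUROD1, REST, SRRM4, POU5F1, NANOG and DLL3 added. Some genes that this rule takes are not reported here. NCAM2, ENO1, ENO3, the luminal genes and the neighbouring genes were chosen after their values were seen. Libraries of a group differed by more than sampling noise (chi-square per degree of freedom of 3.67 to 9.67), so none was counted as a copy. Promoters are RefSeq entries of GRCh38.p14, and no protein sequences were used here.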

Additional observations from a re-analysis of the deposited data

Results flagged for a closer look

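All 8 tested markers differed between guide 2 and the libraries labelled guide 1 in a direct test (edgeR quasi-likelihood test, adjusted over all genes). The test compares 2 sets of libraries, in which the hairpin and its selected cells cannot be told apart. The log2 difference was -6.89 for INSM1 (adjusted p = 1.01e-16), -6.48 for NCAM1 (1.75e-22), -5.72 for SOX2 (2.81e-15), -4.85 for CHGB (1.67e-07) and -4.15 for POU3F2 (9.18e-19). It was smaller for SYP at -1.76 (3.75e-11), CHGA at -1.67 (6.9e-04) and ENO2 at -0.68 (8.6e-07). In each, all 3 guide 2 libraries lay below all 3 libraries labelled guide 1. NCAM1, INSM1, POU3F2, SOX2 and CHGB were called in opposite directions against shScramble with the 2 hairpins, whereas ENO2 was called higher with both. CHGB, INSM1 and SOX2 entered the direct test and the comparison of guide 2 with shScramble only through the libraries labelled guide 1. They were not tested in the fit of the 6 libraries of guide 2 and shScramble alone. CHGB lost its guide 2 call in 5 of 13 alternatives. METTL3 itself differed by -0.86 between the same libraries (adjusted p = 5.3e-12). The 11 luminal markers, of which FOLH1 gave the largest part, summed to 3843 to 3973 CPM with guide 2 and 1668 to 1725 CPM in the libraries labelled guide 1. The part of either in the lineage markers was not tested. With 3 libraries a group, single outlying libraries were not searched for.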

How the results depend on the processing

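The log2 changes of the 8 tested markers were recomputed with DESeq2 1.42.0 in place of edgeR, with its size factors in edgeR, with library size alone, with no filter on low counts, with a minimum mean of 1 CPM, with the 6 libraries of each comparison alone, with the replicate number as a block, with each library left out in turn, with the adjusted p alone and with a test against the fold of 1.5 (glmTreat). Of 351 such values, 338 kept their direction and their side of the threshold, 8 lost the call, 5 gained it and 0 changed direction. The losses were CHGB and CHGA with guide 2 and the difference of ENO2 between hairpins, and the losses are named in the report apart from the glmTreat value of ENO2 (adjusted p = 0.144). The 5 gains were all SYP with guide 2, 4 named in the report and 1 by the adjusted p alone. Fitting the 6 libraries alone left 4 markers called with guide 2, since CHGB, INSM1 and SOX2 then failed the filter. Calls by the adjusted p alone numbered 11910 with guide 2, 13188 with guide 1 and 14386 between them, beside 5645, 7265 and 9125 with the fold threshold, and glmTreat called 3261 genes with guide 2. Library size alone shifted the median of all genes with guide 2 from -0.04 to -0.19 and the share of higher calls from 30.2% to 17.2% (1012 higher), and ENO2 was still called higher there. The same replicate numbers did not pair the libraries (correlations of deviations from -0.0981 to 0.0529). With the replicate block, 7, 7 and 8 markers were called in the 3 comparisons, as without it, and 5494, 7140 and 9027 genes. Depth limits FOXA2, and CHGA, CHGB, INSM1 and SOX2 with guide 2, where at least 1 library held 3 counts or fewer.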
